A study of Mus musculus with 22 samples.

Results

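The mRNAs for the proteins of the mitochondrial ribosome were followed in ribosome pulldowns from striatal neurons of Fmr1 mutant and wild-type mice. The members were all symbols in the count files that begin with Mrpl or Mrps followed by a digit, with the 5 symbols that carry -ps (pseudogenes) left out. This gave 78 genes of 55341, of which 49 were named for the large subunit (Mrpl) and 29 for the small subunit (Mrps). They lie on 17 chromosomes of GRCm38/mm10, and their coding sequences were short, from 261 to 1326 bases with a median of 582 (576 for Mrpl genes and 588 for Mrps genes).

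Mitochondria translate the few proteins encoded in their own DNA on a ribosome of their own. Its RNAs are made in the organelle, whereas its proteins are encoded in the nucleus, translated by cytosolic ribosomes and imported. The products of this ribosome are core subunits of the respiratory chain and of ATP synthase, on which neurons depend heavily for ATP. Pulled-down mRNA of these genes is therefore mRNA on tagged cytosolic ribosomes and not on mitochondrial ones.

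All mice carried an EGFP fusion of the cytosolic ribosomal protein Rpl10a in striatal neurons that express the dopamine receptor Drd1. The Fmr1 mutant mice, labelled KO and described as a fragile X model, gave 5 animals (numbers 2, 3, 9, 10 and 11), and the wild-type mice, labelled WT, gave 6 (numbers 1, 4, 12, 13, 14 and 20). Each animal gave a pulldown with antibodies against EGFP (IP) and an input library (labelled Total) from the same cleared striatal lysate, so 22 libraries were compared. Age, strain and litter are not given in the labels, and per the labels all libraries were pulled down and sequenced as 1 batch.

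Total counts were 13759027 to 49669222 in mutant IP, 9375611 to 82376192 in wild-type IP, 28438717 to 43276230 in mutant input and 25164548 to 38270808 in wild-type input. Fmr1 averaged 11.6 ± 1.47 CPM (counts scaled to library size) in mutant IP and 99.8 ± 14.8 CPM in wild-type IP, and 11.4 ± 1.34 CPM in mutant input against 55.2 ± 4.36 CPM in wild-type input (SD, n = 5 and 6). Rpl10a, the gene behind the tag, averaged 33.7 ± 5.48 CPM in mutant IP and 35.4 ± 3.07 CPM in wild-type IP. All 8 D1 neuron markers were called higher in IP than in input in both genotypes, and the 5 tested D2 neuron markers, 8 astrocyte markers, 9 oligodendrocyte markers and 9 microglia markers were all called lower. Of 7 endothelium markers, 4 were called lower in the mutant and 5 in wild type. Of 8 cortical excitatory neuron markers, only 1 was called lower in each genotype. Markers of cortical excitatory neurons set 4 animals apart. Their sum was 145 and 251 CPM in IP of mutant animals 3 and 9, against 11.1 to 16.7 CPM in the other mutant IP libraries, and it was 93.0 and 263 CPM in IP of wild-type animals 1 and 12, against 11.9 to 17.6 CPM in the other wild-type IP libraries. The same 4 animals were highest in input. Mutant animals 3 and 9 had 252 and 643 CPM there, against 104 to 131 CPM in the other mutant input libraries. Wild-type animals 1 and 12 had 154 and 364 CPM, against 87.45 to 120.2 CPM in the other wild-type input libraries. In bulk tissue such as the input, fewer cells of a type and less RNA per cell cannot be told apart.

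Of the 78 members, 77 passed the filter on low counts in each comparison. The exception was Mrpl53, a large-subunit gene with at most 1 read in any library. Its exons overlap other gene models over 88.0% of their bases, with Gm42688 on the same strand holding the largest part. How counting assigned its reads therefore cannot be seen. Exons of 10 members overlapped other genes by at least 20% of their bases, and the libraries do not keep the strand. Percentages are over all overlapping genes, and the gene named beside each holds the largest part. The members were Mrpl53, Mrps34 (77.8%, Mapk8ip3), Mrps25 (69.8%, Nr2c2), Mrpl19 (36.0%, Gcfc2), Mrpl43 (33.4%, Twnk), Mrps18b, Mrpl24, Mrpl47, Mrps27 and Mrps18c. Reads of the 5 pseudogene symbols reached at most 185 in a library, for Mrpl23-ps1, and the share lost to or gained from such copies was not tested.

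Genes for mitochondrial proteins often carry binding motifs for the nuclear respiratory factor NRF1 and for ETS family factors such as GABP (NRF2) near their start sites. Part of the members carried such motifs, which their names did not select. RefSeq windows (GRCm38.p6) were matched for 69 members, with 75 windows, and the 250 bases before each start were searched on both strands. The NRF1 motif (GCGCA, any base, then GCGC) was present in 13.3% of the members' windows, against 3.74% of 32851 windows of all genes. The ETS motif CCGGAAG was present in 24.0%, against 6.91% of all windows, and either motif in 36.0%, against 10.1%. By subunit, the NRF1 motif was in 9 of 48 large-subunit windows (18.8%) and 1 of 27 small-subunit windows (3.70%). The ETS motif was in 12 of 48 (25.0%) and 6 of 27 (22.2%). The small-subunit share of the NRF1 motif was near that of all windows but rests on 1 window, that of Mrps21. The motifs were not particular to the members. Windows of oxidative phosphorylation genes held the NRF1 motif in 20.6% and the ETS motif in 17.6%. Those of cytosolic ribosomal protein genes held them in 1.47% and 27.9%. The following stretches show the NRF1 motif in 5 named members whose values are given further on, each read 5′ to 3′ on the gene's strand with the motif in capitals.
Mrpl9 (chr3:94443298-94443327, plus strand): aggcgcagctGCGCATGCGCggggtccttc
Mrpl39 (chr16:84735350-84735379, minus strand): aaggagaggcGCGCATGCGCccccgcgtgg
Mrpl44 (chr1:79775973-79776002, plus strand): agaagcacttGCGCACGCGCagtacactag
Mrpl57 (chr14:57826172-57826201, plus strand): tttgaatcctGCGCAGGCGCagaaggcgtc
Mrps21 (chr3:95871586-95871615, minus strand): ggaaagtccaGCGCCTGCGCtcagcaccga
The stretch of Mrps21 holds the motif on the opposite strand. A match describes letters and is not evidence of binding.

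Per kilobase of exon, the members were expressed at middle levels, above the median gene and below the other large mitochondrial and ribosomal lists. Levels per kilobase were scaled over all 22 libraries. The median member had 9.30 CPM per kilobase in mutant IP and 8.81 in wild-type IP, against 2.03 and 2.02 for all 17311 genes tested. Nuclear-encoded oxidative phosphorylation genes had medians of 67.5 CPM per kilobase in mutant IP and 60.2 in wild-type IP, and cytosolic ribosomal protein genes 32.6 and 30.0. Large-subunit members had a higher median than small-subunit members, at 10.9 against 5.75 CPM per kilobase in mutant IP and 9.78 against 5.89 in wild-type IP. The same order held in input, where large-subunit members had 11.2 and small-subunit members 6.31 CPM per kilobase in the mutant, and 10.6 and 5.93 in wild type. Exon lengths sum all annotated exons, so members with long alternative exons read low on this scale.

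Single members spanned a wide range that hardly differed between genotypes. The highest in wild-type IP was Mrps21, a small-subunit protein with a bacterial counterpart, at 35.8 ± 5.82 CPM per kilobase in mutant IP and 31.5 ± 4.13 in wild-type IP. Mrpl41 followed at 32.9 ± 2.76 and 30.6 ± 3.26, then Mrpl36 at 27.5 ± 4.12 and 25.4 ± 2.32 and Mrpl20 at 25.98 ± 2.47 and 25.3 ± 2.92 (SD, n = 5 and 6). Mrps21 and Mrpl41 did not differ beyond their spread, nor did Mrpl36 and Mrpl20. The lowest members that passed the filter were Mrps34 at 0.656 ± 0.117 CPM per kilobase in mutant IP and 0.619 ± 0.144 in wild-type IP, Mrpl23 at 0.960 ± 0.163 and 0.896 ± 0.241, Mrps18b at 1.24 ± 0.172 and 1.27 ± 0.403, and Mrps35 at 1.45 ± 0.300 and 1.35 ± 0.154. Exons of Mrps34 and Mrps18b overlap other genes over 77.8% and 30.5% of their bases. How counting assigned reads there cannot be seen, and its part in these low levels was not tested. Across the 77 members the log2 level per kilobase in mutant IP followed that in wild-type IP with r = 0.995, and IP followed input with r = 0.972 in the mutant and 0.971 in wild type, as a description over genes that share exon lengths. The median coefficient of variation between animals was 14.97% in mutant IP and 12.9% in wild-type IP.

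Whether pulldown differed between genotypes is the question set by the series title, which asks about translation in D1 neurons of Fmr1 model mice. No member was called in mutant against wild-type IP by the edgeR quasi-likelihood test at an adjusted p of 0.05, where 8 of 14456 genes were called (0.0553%), Fmr1 among them and all lower in the mutant. At an unadjusted p under 0.05, 3 members were higher and 0 lower in the mutant, which is 3.90% of 77 members against 3.11% of all genes on the higher side and 4.51% on the lower side. No member was called with DESeq2 or limma-voom, which gave 4 and 5 members at an unadjusted p under 0.05, all higher.

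Small differences in IP leaned one way. The log2 fold change, mutant over wild type, was positive for 62 of 77 members (39 of 48 large-subunit and 23 of 29 small-subunit members), against 7334 of 14456 genes (50.7%). Its median was 0.10 for large-subunit members and 0.09 for small-subunit members, against 0.00 for all genes, and single members ranged from -0.20 to 0.37. Without animals 1, 3, 9 and 12, 60 of 77 were positive with a median of 0.13, against 49.6% of all genes. This direction had been seen in these data when the members were chosen, so it is a description and carries no test. The same lean was present in other lists, with 62 of 79 cytosolic ribosomal protein genes positive (median 0.09) and 70 of 76 oxidative phosphorylation genes positive (median 0.13). Markers of other cells also had positive medians in mutant over wild-type IP, at 0.41 for cortical excitatory neurons (7 of 7 tested positive), 0.38 for astrocytes (7 of 8), 0.19 for oligodendrocytes (8 of 9), 0.13 for D2 neurons (4 of 5) and 0.47 for endothelium (3 of 4), with -0.04 for D1 neurons (3 of 8) and -0.02 for microglia (3 of 6). No marker was called, and their part in the lean of the members was not tested.

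**Figure D1:**
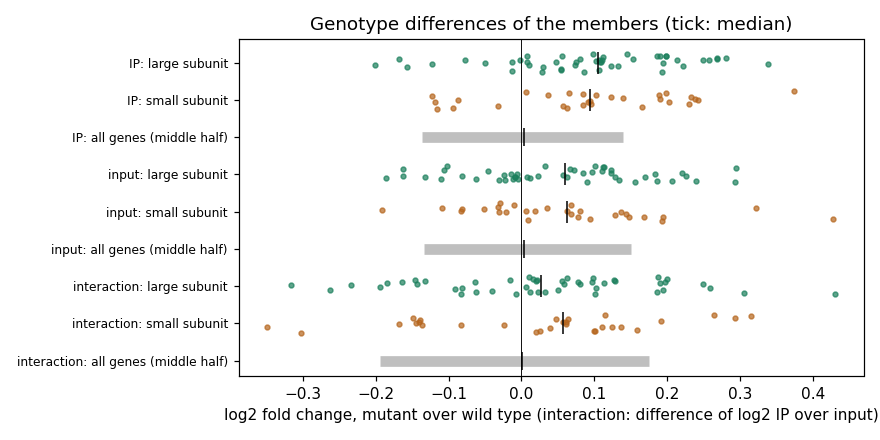
Log2 fold change of the members, mutant over wild type, in IP and in input, and the difference between genotypes in log2 IP over input (interaction), on the horizontal axis. Each point is 1 member, black ticks are medians and grey bars are the interquartile range of all genes tested. In IP the medians were 0.10 for the large and 0.09 for the small subunit, beside 0.00 for all genes.

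Mrps12 had the smallest p among members in IP. It encodes the small-subunit counterpart of the bacterial decoding-centre protein S12. It was at 34.9, 38.3, 28.3, 35.0 and 37.4 CPM in mutant IP (animals 2, 3, 9, 10 and 11), against a lowest value of 22.1, a median of 26.7 and a highest value of 31.3 CPM in wild-type IP. Mutant animal 9 lay within the wild-type range and the other 4 above it. The log2 fold change was 0.37 ± 0.12 (SE), with an adjusted p of 0.426 in edgeR's test. In the authors' deposited table Mrps12 had the smallest adjusted p of any member in IP, 0.102, also higher in the mutant.

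Mrpl57, a mitochondria-specific large-subunit protein whose promoter stretch is shown above, was at 45.7, 39.2, 44.5, 41.4 and 41.3 CPM in mutant IP and at 25.3 (lowest), 33.5 (median) and 42.1 CPM (highest) in wild-type IP. Only wild-type animal 4, at 42.1 CPM, reached the mutant range. The log2 fold change was 0.34 ± 0.12 (adjusted p = 0.516). Mrps14, a small-subunit protein with a bacterial counterpart, averaged 96.17 ± 3.004 CPM in mutant IP and 85.8 ± 6.74 CPM in wild-type IP, a log2 fold change of 0.17 ± 0.08 (adjusted p = 0.639). Mrpl39, a mitochondria-specific large-subunit protein, averaged 45.2 ± 3.50 CPM in mutant IP and 39.6 ± 2.99 CPM in wild-type IP, a log2 fold change of 0.19 ± 0.09 (adjusted p = 0.672). The groups overlapped for all 4 of these members, as they did for every other member in IP, while 0.360% of all genes had mutant libraries wholly above and 0.609% wholly below the wild-type ones.

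On the lower side no member reached an unadjusted p under 0.05. The 4 with the smallest p were Mrpl37 at 31.4 ± 6.09 CPM in mutant IP and 35.4 ± 3.57 CPM in wild-type IP (log2 fold change -0.17 ± 0.13), Mrpl44 at 11.1 ± 2.44 and 12.7 ± 0.705 CPM (-0.20 ± 0.16), Mrps31 at 25.5 ± 1.60 and 27.7 ± 3.94 CPM (-0.12 ± 0.12), and Mrps22 at 25.0 ± 2.61 and 27.2 ± 4.36 CPM (-0.12 ± 0.13). Mrpl44 carries a ribonuclease III-like fold, and mutations of human MRPL44 and MRPS22 cause mitochondrial disease. Mutant animal 11 was low for Mrpl37, at 21.2 CPM, where the other 4 mutant libraries were at 30.5 to 36.1 CPM.

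The mean log2 CPM over the members of a subunit gave 1 value per library. For the large subunit it was 4.93, 4.91, 4.65, 4.87 and 4.88 in mutant IP (animals 2, 3, 9, 10 and 11) and 4.66 to 4.82 in wild-type IP, with means of 4.85 ± 0.11 and 4.76 ± 0.06. For the small subunit it was 4.39, 4.37, 4.12, 4.31 and 4.32 in mutant IP and 4.13 to 4.27 in wild-type IP, with means of 4.30 ± 0.11 and 4.21 ± 0.06. In both, mutant animals 2, 3, 10 and 11 were above all 6 wild-type animals and animal 9 was below all 6. Animal 9 is one of the animals with high cortical marker sums, as is animal 3, and the part of these markers in the result was not tested. Without animal 9 the median log2 fold change in IP was 0.14 for the large and 0.15 for the small subunit. In that run 63 of 77 members were positive, against 49.4% of all genes, and no member was called. Animal 9 was singled out after its values for these members were seen, so this run is a description.

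**Figure D2:**
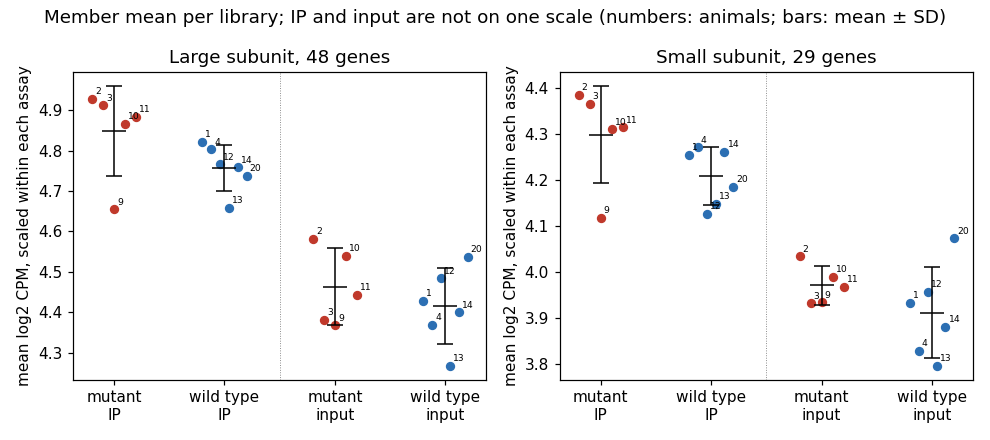
Mean log2 CPM of the 48 large-subunit members (left) and the 29 small-subunit members (right) in every library. Points are libraries marked with the animal number, and black bars are the mean ± SD of 5 mutant or 6 wild-type libraries. CPM was scaled within the IP libraries and within the input libraries, so heights can be compared between genotypes but not between IP and input. In IP, mutant animal 9 is the lowest library in both panels, at 4.65 and 4.12.

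In input, the comparison of genotypes in whole striatal lysate also gave no called member, where 3 of 16429 genes were called (0.0183%). At an unadjusted p under 0.05, 2 members were higher and 0 lower by edgeR, where 3.16% of all genes were higher and 3.68% lower. DESeq2 gave 3 and 0 members and limma-voom 2 and 0, with no member called by any of them. The shares of all genes with DESeq2 and limma-voom are not given here. The log2 fold change was positive for 48 of 77 members against 8298 of 16429 genes (50.5%), with medians of 0.06 for both subunits and 0.00 for all genes. These values moved with the animals included. Without mutant animal 2, 41 of 77 were positive and the small-subunit median was -0.01, and without animals 1, 3, 9 and 12, 62 of 77 were positive. In the same comparison 79 of 79 cytosolic ribosomal protein genes (median 0.24) and 66 of 76 oxidative phosphorylation genes (median 0.10) were positive. Marker medians were -0.22 for D1 neurons (0 of 8 positive), -0.07 for D2 neurons (0 of 5), 0.20 for astrocytes (6 of 8), 0.12 for oligodendrocytes (7 of 9), 0.59 for cortical excitatory neurons (6 of 6 tested), -0.12 for microglia (3 of 9) and -0.11 for endothelium (3 of 7). None of these genes was called, and their part in the members' values was not tested.

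Mrps21 and Mrpl50 led the higher side in input. Mrps21 was at 29.9, 28.7, 26.7, 32.2 and 33.2 CPM in mutant input and at 20.03 (lowest), 24.8 (median) and 27.0 CPM (highest) in wild-type input. Mutant animal 9 lay just below the highest wild-type library and the other 4 above it. The log2 fold change was 0.32 ± 0.10 (adjusted p = 0.543), and the authors' deposited table gave Mrps21 the smallest adjusted p of any member in input, 0.244. Mrpl50, a mitochondria-specific large-subunit protein, was at 45.3, 51.2, 41.3, 44.9 and 45.1 CPM in mutant input and at 36.2 (lowest), 38.9 (median) and 40.7 CPM (highest) in wild-type input. These groups did not overlap, which held for 1 of 77 members and for 0.237% of all genes in that direction (0.396% in the other). Its log2 fold change was 0.24 ± 0.08 (adjusted p = 0.572).

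Other members of the input comparison stayed further from the threshold. Mrpl20 averaged 48.2 ± 8.20 CPM in mutant input and 41.3 ± 3.70 CPM in wild-type input (log2 fold change 0.22 ± 0.11). With the smallest p on the lower side, Mrpl46 averaged 14.1 ± 1.39 and 16.1 ± 1.95 CPM (-0.19 ± 0.13), Mrpl3, counterpart of the bacterial protein L3 at the peptidyl transferase centre, 49.0 ± 4.87 and 52.9 ± 2.48 CPM (-0.11 ± 0.09), and Mrps25 17.1 ± 2.45 and 19.5 ± 4.38 CPM (-0.19 ± 0.15), all with adjusted p of 0.828 or more. Mitochondrial ribosomal RNA took 0.420% to 0.904% of counts in mutant IP and 0.449% to 0.694% in wild-type IP, against 30.6% to 53.2% in mutant input and 25.1% to 37.1% in wild-type input, and its part in the values of the members was not tested. The members together took 0.236 ± 0.0158% of mutant IP counts and 0.218 ± 0.0088% of wild-type IP counts, and 0.171 ± 0.0287% of mutant input counts and 0.183 ± 0.0210% of wild-type input counts.

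The ratio of IP to input shows how far tagged ribosomes of D1 neurons were enriched for an mRNA over the whole lysate. It was fitted over all 22 libraries on 1 scale, without a term for the animal, and CPM in the following paragraphs are on that scale. The members stayed close to their input. In the mutant 8 members were called higher and 12 lower in IP of 77, which is 10.4% and 15.6%, against 20.9% and 26.4% of 17311 genes. In wild type 9 were called higher and 14 lower, which is 11.7% and 18.2%, against 21.8% and 27.8% of all genes. RLE scaling, in place of TMM, gave 8 higher and 22 lower in wild type. The share of all genes called with RLE scaling is not given here, so this count cannot be read against the shares above.

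The median log2 fold change, IP over input, was -0.05 in the mutant and -0.12 in wild type, beside -0.11 for all genes in either genotype. No member changed by more than 1 on the log2 scale, while 27.7% of all genes in the mutant and 26.5% in wild type did. The median absolute change was 0.21 in the mutant and 0.23 in wild type for members, and 0.52 and 0.50 for all genes. Such small changes were not particular to the members. No gene of 76 for oxidative phosphorylation changed by more than 1 in either genotype, with median absolute changes of 0.209 in the mutant and 0.245 in wild type. Of 79 cytosolic ribosomal protein genes, 73.4% in the mutant and 57.0% in wild type changed by more than 1.

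Large-subunit members had a median of 0.00 in the mutant and -0.06 in wild type, and small-subunit members -0.09 and -0.15. Of 48 large-subunit members, 5 were called higher and 7 lower in the mutant, and 5 higher and 8 lower in wild type. Of 29 small-subunit members, 3 were called higher and 5 lower in the mutant, and 4 higher and 6 lower in wild type. In both subunits these were smaller shares than over all genes. Of all genes, 20.9% were called higher and 26.4% lower in the mutant, and 21.8% and 27.8% in wild type. The difference between the large and small medians, taken within each animal, ran from -0.06 to 0.21 over the 5 mutant animals and from 0.00 to 0.19 over the 6 wild-type animals and was above 0 in 3 of the 5 mutant and 5 of the 6 wild-type animals. Moving Mrps30 and Mrps18a, whose proteins sit in the large subunit in spite of their names, and leaving out Mrps36, known as a subunit of the 2-oxoglutarate dehydrogenase complex, gave -0.08 in the mutant and -0.14 in wild type for the small subunit.

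**Figure D3:**
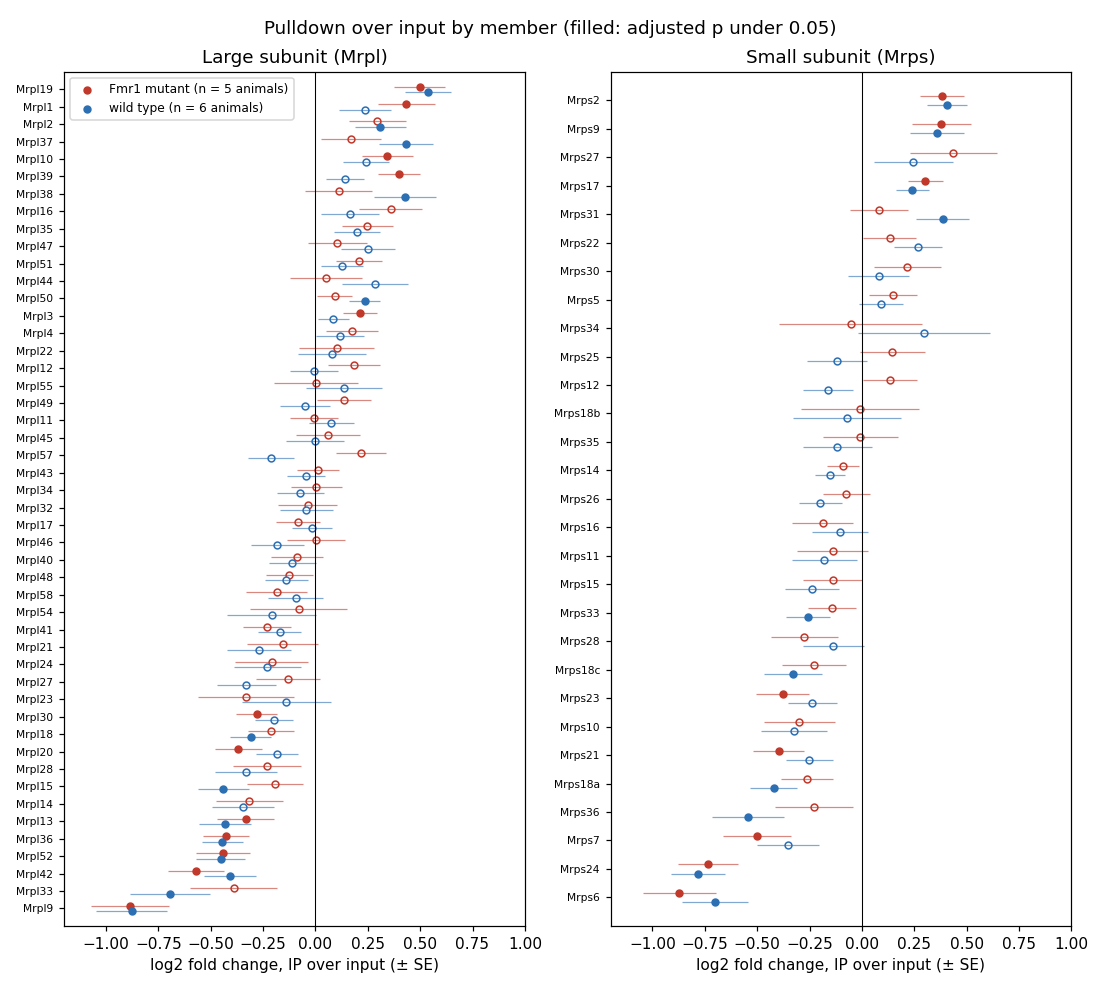
Log2 fold change, IP over input, ± SE for each member in Fmr1 mutant (red, above) and wild-type mice (blue, below), with large-subunit members on the left and small-subunit members on the right, sorted by the mean of both genotypes. Filled points had an adjusted p under 0.05. All values lie between -0.89 and 0.54, with Mrpl9 and Mrps6 at the low end and Mrpl19 and Mrps2 at the high end.

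Between the genotypes, which share no library here, 4 members were called higher in both. These were Mrpl19, Mrps2, Mrps9 and Mrps17, and they made up 50.0% of those called higher in the mutant and 44.4% of those in wild type, where the genes called higher in both made up 87.4% and 83.5% over all genes. The 7 called lower in both, Mrpl9, Mrps24, Mrps6, Mrpl42, Mrpl52, Mrpl36 and Mrpl13, made up 58.3% and 50.0%, against 84.2% and 80.2% over all genes called lower. None was called in opposite directions. Over all 77 members the log2 fold changes of mutant and wild type had r = 0.86, and over all genes tested r = 0.87.

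Mrpl9, counterpart of the bacterial protein L9, was the most depleted member. It was at 11.1, 14.5, 6.51, 11.3 and 15.4 CPM in mutant IP (animals 2, 3, 9, 10 and 11), against 26.1, 16.01, 18.9, 22.5 and 24.6 CPM in mutant input. In wild-type IP it ran from 10.9 over a median of 11.9 to 17.6 CPM, against 19.3, 24.8 and 26.4 CPM in wild-type input. IP and input did not overlap in either genotype, and mutant animal 3 had the smallest gap, -0.15 on the log2 scale. The log2 fold change was -0.89 ± 0.19 in the mutant (adjusted p = 0.000275) and -0.88 ± 0.17 in wild type (adjusted p = 9.2e-05).

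Mrps24 and Mrps6, both small-subunit proteins with bacterial counterparts, were depleted nearly as much. Mrps24 was at 21.0, 16.5, 12.3, 18.5 and 17.5 CPM in mutant IP and at 29.7, 26.4, 23.2, 32.7 and 31.1 CPM in mutant input. In wild type it ran from 12.3 over 15.3 to 17.3 CPM in IP and from 21.95 over 25.5 to 31.2 CPM in input, again without overlap. Its log2 fold changes were -0.74 ± 0.14 in the mutant (adjusted p = 0.000111) and -0.78 ± 0.13 in wild type (adjusted p = 1.4e-05). Mrps6 was lower in IP by -0.87 ± 0.17 in the mutant (adjusted p = 0.00015) and -0.70 ± 0.16 in wild type (adjusted p = 0.000516), at 5.57 ± 0.820 CPM in mutant IP against 10.2 ± 1.82 CPM in mutant input and 5.94 ± 0.892 CPM in wild-type IP against 9.68 ± 1.47 CPM in wild-type input.

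Mrpl42, Mrpl52 and Mrpl36 were lower in IP by smaller amounts. Mrpl42, a mitochondria-specific protein, averaged 31.3 ± 5.63 CPM in mutant IP and 46.6 ± 9.45 CPM in mutant input, and 30.3 ± 3.91 CPM in wild-type IP and 40.2 ± 4.77 CPM in wild-type input. Its log2 fold changes were -0.57 ± 0.14 and -0.41 ± 0.12 (adjusted p = 0.00105 and 0.00782). The values were -0.44 ± 0.13 in the mutant and -0.45 ± 0.12 in wild type for Mrpl52 (adjusted p = 0.00613 and 0.00225), and -0.43 ± 0.11 and -0.44 ± 0.10 for Mrpl36, among the shortest members at 306 coding bases (adjusted p = 0.00185 and 0.000501). Each of these 3 was lower in IP in all 11 animals.

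On the other side, Mrpl19, counterpart of a bacterial protein at the interface of the subunits, was the most enriched. It was at 33.1, 34.1, 37.0, 42.1 and 28.7 CPM in mutant IP and at 29.6, 21.6, 22.6, 21.4 and 28.6 CPM in mutant input. In wild type it ran from 27.0 over 31.7 to 35.6 CPM in IP and from 18.5 over 22.3 to 25.6 CPM in input. The wild-type groups did not overlap. In the mutant they did, since animal 11 had nearly the same value in IP and in input and the input of animal 2 lay above the lowest IP library. The log2 fold changes were 0.50 ± 0.12 in the mutant (adjusted p = 0.00129) and 0.54 ± 0.11 in wild type (adjusted p = 0.000208). Mrpl19 shares 36.0% of its exon bases with other genes, of which Gcfc2 on the other strand holds the largest part. The part of this overlap in its reads was not tested.

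Mrps2, Mrps9 and Mrps17, all small-subunit proteins with bacterial counterparts, were the others enriched in both genotypes. Mrps2 averaged 51.1 ± 3.02 CPM in mutant IP and 39.1 ± 6.26 CPM in mutant input, and 51.1 ± 5.91 CPM in wild-type IP and 38.6 ± 2.64 CPM in wild-type input. Its log2 fold changes were 0.38 ± 0.10 in the mutant (adjusted p = 0.00324) and 0.41 ± 0.09 in wild type (adjusted p = 0.000744). Those of Mrps9 were 0.38 ± 0.14 and 0.36 ± 0.13 (adjusted p = 0.0284 and 0.0224), and those of Mrps17 0.30 ± 0.08 and 0.24 ± 0.08 (adjusted p = 0.00393 and 0.0102). Without animals 1, 3, 9 and 12, Mrps9 (0.26 and 0.33) and Mrps17 (0.25 and 0.21) were not called in either genotype and Mrpl19 (0.38) was not called in the mutant. Mrps9 was also not called in the mutant without animal 9 (0.31) or 10 (0.39), and in wild type without animal 1 (0.33) or 4 (0.33).

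Members called in 1 genotype do not differ between genotypes by that alone, and the interaction tests it. No gene of 17311 was called for the difference between genotypes in IP over input by the edgeR quasi-likelihood test, and 1 member of 77 had an unadjusted p under 0.05, against 4.10% of all genes in either direction. DESeq2 and limma-voom also called none of the members, with 2 and 1 at an unadjusted p under 0.05, for which the shares of all genes are not given here. The member under 0.05 by edgeR was Mrpl57. Its log2 fold change, IP over input, was 0.22 ± 0.12 in the mutant and -0.21 ± 0.11 in wild type, a difference of 0.43 ± 0.16 (adjusted p = 1). Within animals it was 0.04, 0.36, 0.51, 0.29 and -0.05 in the mutant and -0.56 to 0.02 in wild type.

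The other members named for the interaction had larger p-values. Mrpl39 differed by 0.26 ± 0.14 and Mrps12 by 0.29 ± 0.18 on the higher side, and Mrps31 by -0.30 ± 0.19, Mrpl38 by -0.32 ± 0.22 and Mrpl37 by -0.26 ± 0.19 on the lower side, each with an adjusted p of 1. The median difference was 0.03 for the large and 0.06 for the small subunit, beside 0.00 for all genes.

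Long members were higher in IP over input than short ones. With the 77 members split by coding length, the 26 shortest (261 to 498 bases) had median log2 fold changes of -0.16 in the mutant and -0.20 in wild type, and the 25 in the middle (501 to 753 bases) -0.14 in both. The 26 longest (756 to 1326 bases) had 0.14 in the mutant and 0.19 in wild type. Of the longest, 7 were called higher in each genotype (26.9%, against 20.9% of all genes in the mutant and 21.8% in wild type), and 1 was called lower in the mutant and 2 in wild type (3.85% and 7.69%, against 26.4% and 27.8% of all genes). Of the shortest, 1 was called higher in the mutant and 2 in wild type (3.85% and 7.69%), and 7 were called lower in the mutant and 8 in wild type (26.9% and 30.8%), so that the share called lower was near that of all genes.

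**Figure D4:**
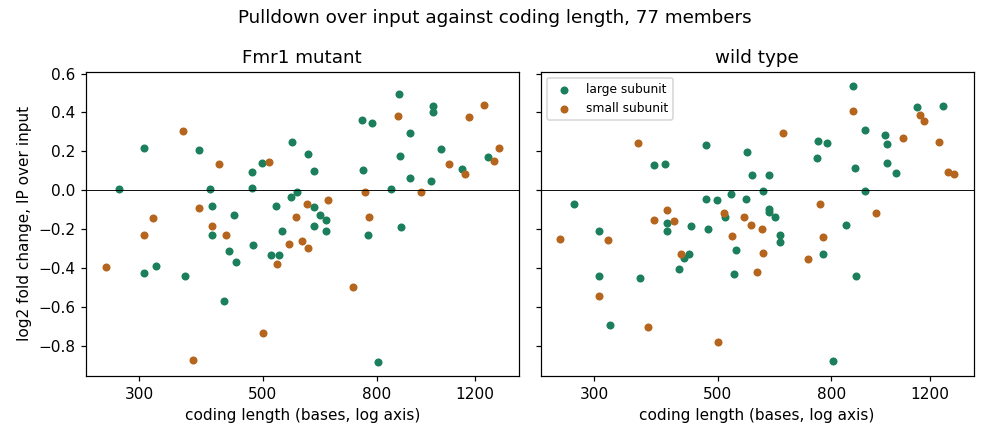
Log2 fold change, IP over input, of the 77 members (vertical axis) against the length of the longest coding sequence in bases (horizontal log axis), in Fmr1 mutant (left) and wild-type mice (right). Green points are large-subunit and brown points small-subunit members. Values go up with length in both panels (r = 0.468 and 0.533), and Mrpl9, at 804 bases, lies lowest.

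As a description over genes, r between log2 coding length and log2 IP over input was 0.468 in the mutant and 0.533 in wild type. In single animals it was 0.263 to 0.450 in the mutant and 0.350 to 0.462 in wild type. It was 0.424 and 0.493 within the large subunit and 0.532 and 0.597 within the small subunit. Leaving out the members whose exons overlap other genes by at least 20% gave 0.440 and 0.514. Without animals 1, 3, 9 and 12 it was 0.485 and 0.522. Over 14070 coding genes r was 0.115 and 0.130, and over 76 oxidative phosphorylation genes, which are also short, 0.684 and 0.672. Genes share libraries, depth and base composition, so these values carry no test.

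Of 4 members set apart for their place or role (Mrps30, Mrps18a, Mrps36 and Mrpl58), Mrps18a and Mrps36 were called lower in wild type. Mrps30 had log2 fold changes, IP over input, of 0.22 ± 0.16 in the mutant and 0.08 ± 0.15 in wild type, and Mrps18a -0.26 ± 0.12 (adjusted p = 0.0816) and -0.42 ± 0.11 (adjusted p = 0.00275). Mrps36 had -0.23 ± 0.19 and -0.54 ± 0.17 (adjusted p = 0.33 and 0.00914). Mrpl58, a peptidyl-tRNA hydrolase that is built into the large subunit, had -0.19 ± 0.14 and -0.09 ± 0.13. None of these 4 was called between genotypes. Of members with much exon overlap, Mrpl43 (0.01 ± 0.10 in the mutant and -0.05 ± 0.09 in wild type), Mrps25 (0.15 ± 0.15 and -0.12 ± 0.14), Mrpl24 (-0.21 ± 0.17 and -0.23 ± 0.16), Mrpl47 (0.10 ± 0.14 and 0.25 ± 0.13), Mrps27 (0.44 ± 0.21 and 0.25 ± 0.19), Mrps34 (-0.05 ± 0.34 and 0.30 ± 0.31) and Mrps18b (-0.01 ± 0.28 and -0.07 ± 0.26) were not called. Without animals 1, 3, 9 and 12, Mrps27 was called higher in both genotypes, at 0.64 and 0.57. Mrps18c was called in wild type by a narrow margin (-0.33 ± 0.14, adjusted p = 0.0492) and had -0.23 ± 0.15 in the mutant.

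Genes that work with the mitochondrial ribosome were set beside the members, and the shares called in each list are to be read against 20.9% of all genes called higher and 26.4% lower in the mutant, and 21.8% and 27.8% in wild type. Of the 5 subunits with other names, Dap3, a small-subunit protein, was called higher in IP in both genotypes (0.32 ± 0.11 and 0.24 ± 0.10), and Chchd1, also of the small subunit, lower in both (-0.56 ± 0.17 and -0.57 ± 0.15). Of 16 mitochondrial translation factors, 3 were called higher in the mutant and 5 in wild type (18.8% and 31.2%) and none lower, with medians of 0.18 and 0.17. Among them Lrpprc, which stabilises mitochondrial mRNAs, had 0.88 ± 0.08 and 0.98 ± 0.08, and the elongation factor Gfm1 0.55 ± 0.07 and 0.79 ± 0.07. Of 20 genes for mitochondrial aminoacyl-tRNA synthesis, 2 were called higher in the mutant and 6 in wild type (10.0% and 30.0%) and none lower (medians 0.18 and 0.20). Pars2, for prolyl-tRNA, had 0.61 ± 0.22 and 0.90 ± 0.20, and Lars2, for leucyl-tRNA, 0.82 ± 0.37 (adjusted p = 0.0748) and 1.06 ± 0.33. Of 24 assembly and RNA modification factors, 1 was called higher and 2 lower in the mutant (4.17% and 8.33%), and 2 higher and 3 lower in wild type (8.33% and 12.5%), with medians of 0.01 in both. Among these Dhx30, an RNA helicase, had 0.63 ± 0.11 and 0.71 ± 0.10, and Mpv17l2, an inner-membrane protein, -1.46 ± 0.27 and -1.14 ± 0.24.

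The remaining lists spread to both sides of the members. Of 16 tested genes of mitochondrial transcription and RNA processing, 3 were called higher (18.8%) and 1 lower (6.25%) in the mutant, and 3 higher (18.8%) and none lower in wild type (medians 0.24 and 0.07). The phosphodiesterase Pde12 had 0.55 ± 0.14 and 0.56 ± 0.13, and Polrmt, the mitochondrial RNA polymerase, 0.33 ± 0.23 (adjusted p = 0.267) and 0.55 ± 0.21. Of 9 regulators of mitochondrial biogenesis, 2 were called higher in each genotype (22.2%) and 1 lower in the mutant (11.1%; medians 0.31 and 0.30), with the transcription factor Yy1 at 0.44 ± 0.09 and 0.53 ± 0.08 and the coactivator Ppargc1b at 0.56 ± 0.17 and 0.81 ± 0.16. Of 76 nuclear-encoded oxidative phosphorylation genes, 6 were called higher in each genotype (7.89%), and 27 were called lower in the mutant and 35 in wild type (35.5% and 46.1%; medians -0.16 and -0.21), with Atp5e, a small subunit of ATP synthase, at -0.77 ± 0.16 and -0.67 ± 0.15, and Atp5l at -0.33 ± 0.15 (adjusted p = 0.0791) and -0.66 ± 0.14. Of 79 cytosolic ribosomal protein genes, 78 in the mutant and 76 in wild type were called lower (98.7% and 96.2%) and none higher (medians -1.21 and -1.05), led by Rps27 at -1.96 ± 0.19 and -1.61 ± 0.17 and Rps20 at -1.81 ± 0.14 and -1.58 ± 0.12. The mRNAs made inside mitochondria, which cytosolic ribosomes do not translate, were called lower for 12 of 12 tested genes in both genotypes (medians -4.71 and -4.16). No gene of these 9 lists was called between genotypes in IP, in input or in the interaction.

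**Figure D5:**
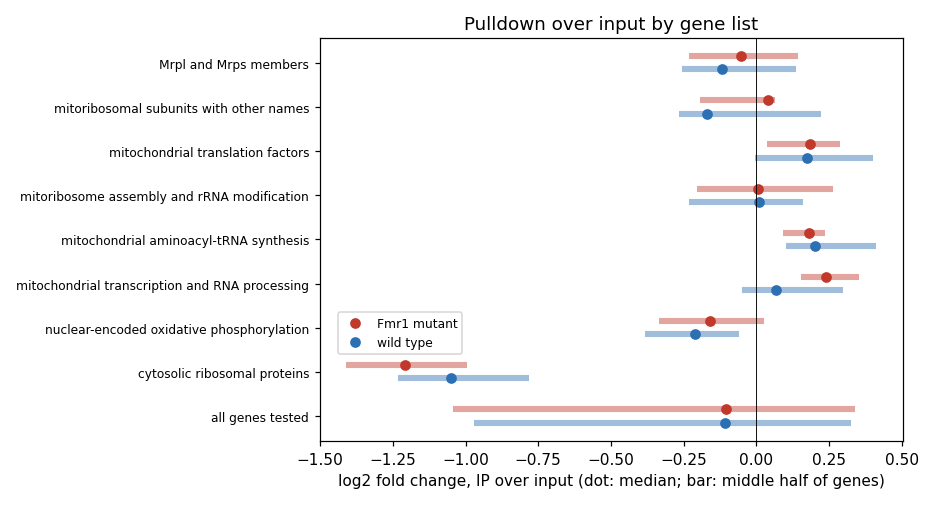
Median log2 fold change, IP over input (dots), and the interquartile range of the genes (bars) for the members, 7 lists of related genes and all genes tested, in Fmr1 mutant (red, above) and wild-type mice (blue, below). The members lie near 0, at -0.05 and -0.12, and cytosolic ribosomal protein genes at -1.21 and -1.05.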

How the data were processed

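Per the labels' protocols, polyA RNA from IP and input of each animal was made into libraries that do not keep the strand and sequenced as read pairs in a single batch. The authors deposited raw counts per gene, and the submitters' processing notes name STAR, featureCounts, DESeq2 and mm10, with no versions given in the sources used here. Their deposited comparison tables hold log2 fold changes (wild type over mutant) and p-values.

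From the counts, edgeR 4.0.16 (R 4.3.3; quasi-likelihood test, TMM scaling, filterByExpr) was fitted over all genes, within IP and within input for the genotypes and over all 22 libraries for IP over input and the interaction. Benjamini-Hochberg adjusted p under 0.05 over all genes was the threshold for a call. CPM used a prior count of 2 on the log2 scale only. CPM of the genotype comparisons was scaled within IP and within input, and all IP-over-input and per-kilobase values over all 22 libraries. DESeq2 1.42.0, limma-voom 3.58.1, other filters and scalings, and leaving out animals were alternatives. The procedure was also run on simulated counts of unpaired libraries, with changes larger than those of any member. That run does not measure power or error at the sizes reported here.

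Same-numbered IP and input came from 1 lysate, and their deviations from group means had r from 0.188 to 0.472 over 8056 genes. The highest log2 correlation between libraries of a group was 0.9944, so none was counted as a duplicate. The main fit of IP over input and of the interaction had no term for the animal and so did not use this pairing. Its p-values and SE measure the spread between libraries within groups, not the spread of the ratio between animals. Nothing in the labels says more of how the animals were chosen, so p-values of the genotype comparisons measure the spread between these animals. The total counts per library limit the precision of the lowest members.

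The members and gene lists were chosen with earlier results of these data known. Named members were the 4 (IP) or 3 (input, interaction) with the smallest p in each direction, and up to 6 per direction called in both genotypes for IP over input. Also named were the 4 highest and 4 lowest per kilobase in wild-type IP and those with at least 20% exon overlap. Mrps30, Mrps18a, Mrps36 and Mrpl58, set apart for their place or role, and the 2 leading genes of each list were named too. Coordinates and lengths follow GENCODE vM21, and promoter windows RefSeq GRCm38.p6.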

Additional observations from a re-analysis of the deposited data

Results flagged for a closer look

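Of 168 groups of libraries examined for a single value far from the rest, 9 held one. The groups share libraries and hold members named from these data, so no rate by chance is set beside this count. In IP of the mutant, animal 9 was low for the mean log2 CPM of the large subunit, at 4.654 with the next library at 4.865, and of the small subunit, at 4.119 with the next at 4.311. In mutant input, Mrps27 stood at 13.11 CPM in animal 9 with the next at 7.947 CPM, and Mrpl41 at 36.96 CPM in animal 2 with the next at 29.25 CPM. In wild-type IP, Mrpl38 stood at 21.62 CPM in animal 12 with the next at 16.75 CPM, and Mrps17 was low at 42.18 CPM in animal 14 with the next at 49.75 CPM. In wild-type input, Mrpl44 stood at 10.84 CPM in animal 20 with the next at 8.102 CPM. Mrpl53 was above 0 in 1 library of each input group, at 0.0296 CPM in mutant animal 3 and 0.03328 CPM in wild-type animal 13, which is 1 read each. A group with 1 read among zeros is always flagged.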

How the results depend on the processing

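Without animal 2 the small-subunit median, mutant over wild type in input, was -0.01, against 0.06 with all animals. No called direction reversed under any alternative run, and no member was called between genotypes or in the interaction under any of them. For IP over input, members called higher in the mutant numbered 4 without animals 1, 3, 9 and 12, against 8 with all animals. Leaving out 1 animal at a time gave 7 to 12 members called lower in the mutant (7 without animal 9) and 7 to 9 higher, and 12 to 18 lower and 7 to 12 higher in wild type. Members called lower in wild type numbered 22 with RLE scaling and 23 with DESeq2, against 14 with TMM, and the cause was not tested. Shares of all genes called in the alternative runs are not given here. Changes in these counts can therefore not be told apart from changes over all genes. With the animal as a replicate block, the pairing gave 8 members higher and 12 lower in the mutant and 9 higher and 16 lower in wild type, and no call in the interaction. For IP over input, the tested ones among the 40 named members kept their direction and side of the threshold in 718 of 741 fits in the mutant and 704 of 741 in wild type. Some of these were named for being called in both genotypes, and the members not named are not in these counts. Depth limits the lowest members: Mrpl53 had 0 or 1 read in every library and was not tested, and Mrps34 had 11 to 118 reads in wild-type IP.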

Other observations

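For 25 of the 78 members, another coding gene starts on the opposite strand within 1000 bases upstream or 500 bases downstream of the member's start site. The share of all genes with such a neighbour was not determined, so the count cannot be read as a trait of the members. Log2 fold changes, IP over input, of such neighbours are values without a test of the pair. The pairs given here are examples and do not stand for all 25. Other pairs had values of the same sign in both genotypes, such as Mrpl36 with Ndufs6 and Mrps27 with Ptcd2. Mrps7 had -0.50 in the mutant and -0.35 in wild type, while its neighbour Gga3, for a Golgi adaptor, had 0.64 and 0.61. Mrpl49 had 0.14 and -0.05, and its neighbour Fau, which encodes a cytosolic ribosomal protein, -0.50 and -0.42. Mrpl32 had -0.04 in both genotypes and its neighbour Psma2, a proteasome subunit, -0.01 and -0.04. Mrpl41 had -0.23 and -0.17, against -2.57 and -2.56 for its neighbour Pnpla7.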
